A study of Rattus norvegicus with 4 samples.

Results

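The mRNA signals of 8 surface antigens of T cells and other leukocytes were read on nylon cDNA arrays of mesenteric white adipose tissue from control and oleoyl-estrone (OE) treated rats. The antigens were the 8 spots, of 1185 on each array, whose gene names gave CD45, CD53, CD3 zeta, CD3 gamma, CD5, CD4, CD2 or CD28. They were selected on measured values, their background-adjusted intensities against the background of these same 4 arrays, so their levels are a description and carry no test. The tissue came from female Wistar rats of 220 to 230 g at the start. A pair of OE rats had received OE, the oleic acid ester of estrone, by stomach cannula on 2 days, in a daily dose of 10 μmol/kg carried by 0.2 ml of sunflower oil, and a pair of control rats had received the oil alone. Mesenteric fat was taken 48 h after the start, and 33P-labelled cDNA made from 5 μg of total RNA of 1 rat was hybridized to each array. The arrays are called control 1, control 2, OE 1 and OE 2.

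CD45 is the receptor tyrosine phosphatase carried by nearly all nucleated blood-derived cells, and in lymphocytes it sets how readily their antigen receptors fire. CD3 zeta and CD3 gamma carry the signal of the T cell receptor into the cell, and CD4, CD2, CD28 and CD5 join or modulate that signal. Adipose tissue holds resident lymphocytes and macrophages between its adipocytes, and mesenteric fat encloses the lymph nodes of the gut. In tissue RNA, fewer leukocytes and less antigen mRNA per leukocyte cannot be told apart.

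The 4 arrays differed before any antigen was considered. The background was 60, 54, 61 and 61 on control 1, control 2, OE 1 and OE 2, and the median background-adjusted intensity was 14, 9, 22 and 17. A spot was taken as over the limit when its adjusted intensity was at least 2 times the background of its array. Control 2 stood apart by its adipocyte genes: the summed level of 8 of them, in multiples of the median of each array (array medians), was 2284 there, and 272 on control 1, while OE 1 and OE 2 gave 441 and 530. FABP4, a fatty acid carrier, made up 90.8% to 94.4% of these sums. FABP4 was over the limit on all 4 arrays, while leptin, the adipocyte hormone, was over it on none. OE 2 stood apart by 4 of 6 intestinal genes, which were over the limit there alone, and the 6 summed to 275 array medians on OE 2 and to between 3.33 and 4.45 on the other 3 arrays. For OE 1 a deposited table of all 4 arrays (the series table) and the file of the array hold different values in 239 of 932 spots compared (25.6%), but the same values for all 8 antigens. The file was used.

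Control 2 gave no antigen over the limit, whereas control 1 gave 6 of 8, OE 1 gave 6 and OE 2 gave 4. Of all 1185 spots, the share over the limit was 12.8% for control 1, 15% for control 2, 20.8% for OE 1 and 14.9% for OE 2. Over the 4 arrays, 6 antigens reached the limit at least once, against 24.1% of all spots, and CD2 and CD28 never did. CD45, CD53, CD3 gamma and CD5 were over the limit on every array but control 2, a pattern that 35 of the 1185 spots showed. The limit itself was 120, 108, 122 and 122 in the order control 1, control 2, OE 1 and OE 2. The values nearest above it were 145 for CD53 on OE 2, 149 for CD3 zeta on OE 1 and 157 for CD4 on control 1. Nearest below it lay 109 for CD4 on OE 2 and 85 and 82 for CD2 on OE 1 and control 1.

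**Figure D1:**
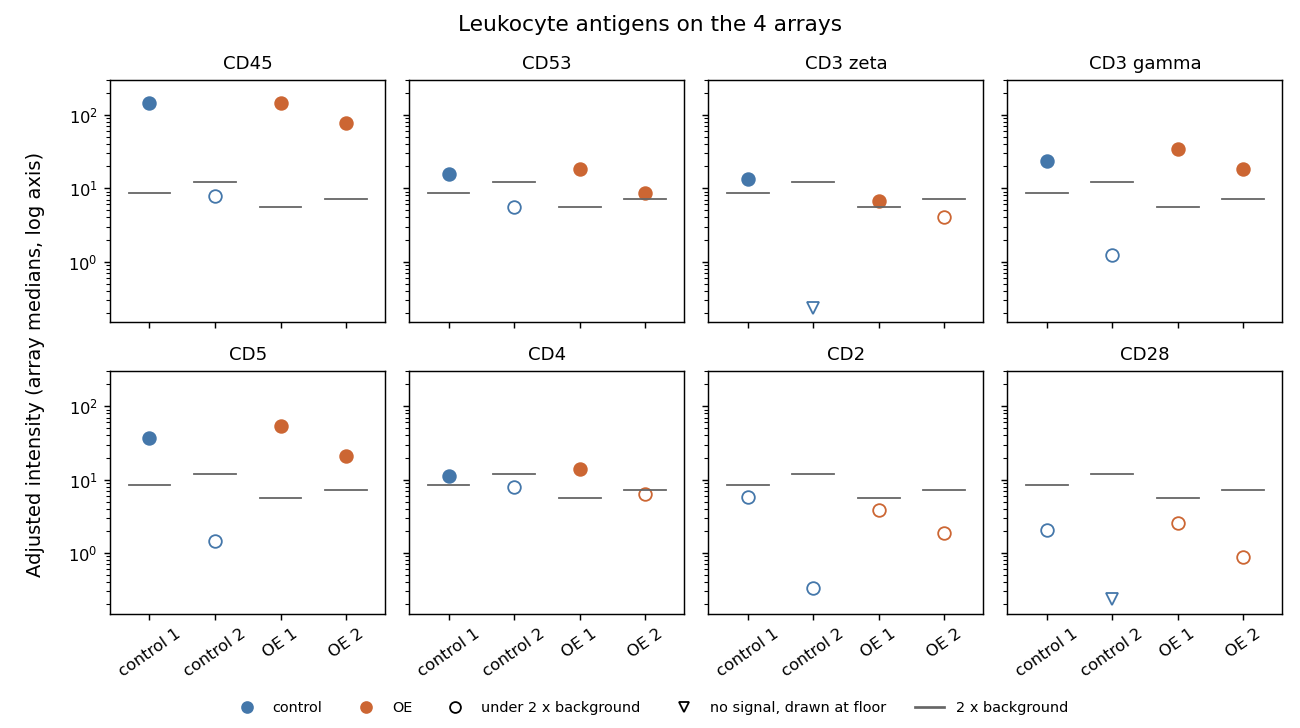
Adjusted intensity of the 8 antigens on the 4 arrays, in array medians on a log axis, with 1 panel per antigen; blue is control, orange is OE, open circles lie under 2 times the background (the grey line of each array) and triangles mark an adjusted intensity of 0 drawn at the floor of 0.235 array medians. Every symbol of control 2 is open, while CD45, CD53, CD3 gamma and CD5 are filled on the other 3 arrays.

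CD45 (spot A01c, gene Ptprc) had adjusted intensities of 2038 and 71 on the controls (1 and 2) and of 3180 and 1319 on the OE arrays (1 and 2). Only the value of control 2 lay under the limit. Divided by the median of each array, CD45 read 146, 7.89, 145 and 77.6 in the order control 1, control 2, OE 1, OE 2, the order used for all further values, so that both OE values lay between those of the controls. Beside the CD45 spot, CD1 read 52, 13, 47 and 13 and integrin-associated protein read 44, 6, 42 and 11, all under the limit. CD53 (A03f), a tetraspanin of leukocyte membranes, had adjusted intensities of 218, 50, 399 and 145. It was over the limit on control 1 and both OE arrays, and OE 2 lay nearest to the limit.

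The CD3 chains are the part of the T cell receptor complex that signals. CD3 gamma (A03h, Cd3g) had adjusted intensities of 330, 11, 753 and 307. Its OE 1 value was the highest and its control 2 value the lowest, with control 1 and OE 2 between them. CD3 zeta (A03b, Cd247) read 185, 0, 149 and 68. It was over the limit on control 1 and OE 1, under it on OE 2, and without signal on control 2. The T cell receptor gamma chain, spotted next to CD5, read 21, 0, 29 and 6 and was under the limit on all 4 arrays.

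CD5 (A03c), a scavenger receptor family glycoprotein that dampens T cell receptor signalling, had adjusted intensities of 521, 13, 1178 and 353. Control 2 was the low array and OE 1 the high array, and OE 2 lay below control 1. CD4 (A03g), the coreceptor of helper T cells for MHC class II, read 157, 72, 308 and 109. Of the 6 antigens that reached the limit it varied least between arrays: it was over the limit on control 1 and OE 1 and under it on the other two. CD2 (A04i), an adhesion molecule of T cells, read 82, 3, 85 and 32, and CD28 (A04g), the costimulatory receptor for B7, read 29, 0, 57 and 15. Neither reached the limit on any array, so no ratio is given for them.

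In array medians, 7 of the 8 antigens were lowest on control 2, where 25.7% of all spots were lowest, and CD4 was lowest on OE 2. The highest array was OE 1 for 5 antigens and control 1 for 3. Both OE arrays lay above both controls for 0 of the 8 antigens, against 11% of all spots, and below both for 0, against 12.3%. The 8 antigens summed to 254, 24.4, 278 and 138 array medians, of which CD45 alone gave 146, 7.89, 145 and 77.6. The adipocyte sum ran the other way between the controls (272 and 2284), and the intestinal sum was high on OE 2 alone. The part of either in the antigen levels was not tested.

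Because all antigens were under the limit on control 2, folds against that array are lower bounds. Each divides the level on the brighter array, in array medians, by 12.1 array medians, the lowest signal over the limit on control 2. CD45 was at least 12.02-fold higher on control 1, at least 11.9-fold on OE 1 and at least 6.41-fold on OE 2. For CD5 the bounds were at least 3.07-fold, 4.42-fold and 1.71-fold, and for CD3 gamma at least 1.95-fold, 2.83-fold and 1.49-fold. CD53 was at least 1.29-fold higher on control 1 and at least 1.497-fold on OE 1. CD3 zeta allowed a bound on control 1 alone, at least 1.09-fold, and CD4 on OE 1 alone, at least 1.16-fold.

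The question put by the design was whether OE altered the tissue's expression, and the methods read it as the ratio of the OE mean to the control mean, with cutoffs of 0.5 and 1.5. Of the 6 antigens that reached the limit, 2 had a ratio over 1.5, against 13.3% of the 285 spots over the limit on some array, and 0 had a ratio under 0.5, against 20%. CD3 gamma averaged 12.4 ± 15.8 array medians in controls and 26.1 ± 11.4 in OE-treated rats (SD, n = 2 each), a ratio of 2.11. For CD5 the means were 19.3 ± 25.3 and 37.2 ± 23.2, a ratio of 1.92. In each of the 6 antigens the difference between the group means was smaller than the larger of the group SDs.

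CD45 averaged 76.7 ± 97.4 array medians in controls and 111 ± 47.3 in OE-treated rats (SD, n = 2 each), a ratio of 1.45. The ratio was 1.26 for CD53, 1.06 for CD4 and 0.801 for CD3 zeta, whose 0 on control 2 entered at the floor of 0.235 array medians. The median log2 of these ratios of means was 0.43 over the 6 antigens and -0.22 over the 285 spots. With geometric means it was 1.60 and -0.05. In all, 5 of the 6 ratios were above 1, but scaling moved this count: it was 4 with the 75th percentile, 1 with the housekeeping genes and 6 without scaling. Geometric means gave 6, with CD3 zeta at 2.95, a value that rests on its floored level on control 2. The other geometric ratios, and their median log2, also rest in part on control 2 values under the limit.

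Which control was used decided the ratios. Against control 1 alone, which is the comparison without control 2, the ratio fell to 1.11 for CD3 gamma, 0.998 for CD5, 0.910 for CD4, 0.856 for CD53, 0.763 for CD45 and 0.408 for CD3 zeta. Then 0 antigens exceeded 1.5, 1 lay under 0.5 and only CD3 gamma was above 1. Against control 2 alone all 6 ratios were above 1 and 5 exceeded 1.5, on values of control 2 that were under the limit. The median log2 ratio without control 2 was -0.18 over the antigens and 0.23 over the 285 spots.

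**Figure D2:**
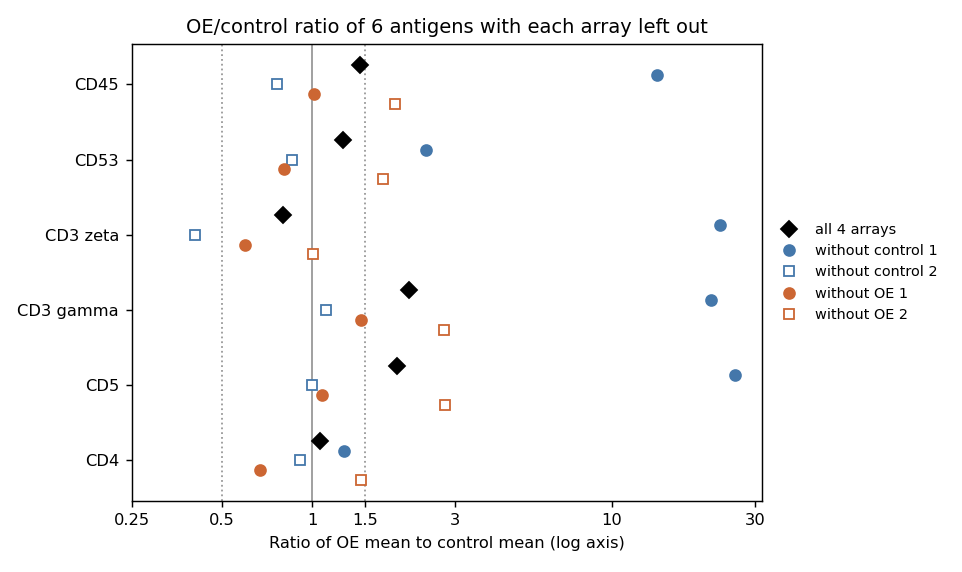
Ratio of the OE mean to the control mean, on a log axis, for the 6 antigens over 2 times the background on at least 1 array, from all 4 arrays (diamonds) and with each array left out; dotted lines mark the cutoffs of 0.5 and 1.5. Without control 2 the ratios reach from 0.408 to 1.11. Without control 1 they divide by values of control 2 under the limit, so that their positions from 1.28 to 25.7 carry no exact size.

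The OE arrays also differed from each other. OE 1 was above OE 2 for all 6 antigens, by 1.69-fold to 2.58-fold (median 2.008, against 1.26 over the 285 spots). It was over 2-fold higher for 3 of them, against 9.47% of those spots. On OE 2 the values of CD3 zeta and CD4 behind these folds were under the limit. Compared with control 1, OE 1 ran from 0.513-fold to 1.45-fold (median 1.21), while OE 2 was lower for all 6, from 0.303-fold to 0.766-fold (median 0.553). Over the 285 spots the medians against control 1 were 1.30-fold for OE 1 and 1.08-fold for OE 2. For 4 antigens, CD53, CD3 gamma, CD5 and CD4, OE 1 lay above control 1 and OE 2 below it.

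Other leukocyte genes on the array were taken as lists of T cell signalling, myeloid, B cell and MHC, mast cell, adhesion and tetraspanin genes, 32 in all. In the limma fit over the whole table, 27 of the 32 were among the 922 genes tested. None rose or fell at an adjusted p under 0.05 (0% of the 922 did in either direction), the smallest adjusted p from limma was 0.957, and 0 of the 27 had an unadjusted p under 0.05, against 19 of the 922. The median log2 fold change was 0.22 over the 27 genes and -0.04 over the 922. It is a difference of mean log2 values, so it is not comparable with the log2 ratios of arithmetic means given for the antigens.

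The T cell signalling genes, 11 in all, summed to 35.6, 8.33, 36.9 and 22.5 array medians, and 7 of them were lowest on control 2. Only 3 reached the limit. Jak3, the kinase of the common gamma chain cytokine receptors, had adjusted intensities of 99, 0, 194 and 135, and was over the limit on both OE arrays. In the series table the OE 1 value of Jak3 is 48, under the limit. The interleukin-2 receptor alpha chain, raised on activated T cells, read 93, 3, 213 and 77, and CD8, the coreceptor of cytotoxic T cells, read 113, 0, 125 and 39. Both were over the limit on OE 1 alone. Control 2 was the lowest array for all 3.

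Myeloid genes, 6 in all, summed to 16.9, 8.11, 25.6 and 20.3 array medians. Both OE arrays lay above both controls for 5 of them, against 11% of all spots. Except for c-fms, this order is among values under the limit on all 4 arrays, so the count shows no measured rise of the list. The macrophage growth factor receptor c-fms, the only myeloid gene to reach the limit, read 100, 46, 315 and 135 and did so on both OE arrays. For c-fms limma gave a log2 fold change of 0.82 ± 0.65 (SE, adjusted p = 0.957). The 7 mast cell genes summed to 107, 286, 115 and 84.9 array medians, and in that unit 5 were highest on control 2. Before scaling, their adjusted intensities summed to 1503, 2574, 2533 and 1444, nearly equal on control 2 and OE 1. Of the mast cell genes c-kit, the stem cell factor receptor, read 1400, 2069, 2220 and 1253 and was over the limit on all 4 arrays. It made up 80.4% to 93.1% of the sums. Mast cell protease 1 read 25, 268, 228 and 118, and protease 3 read 51, 220, 81 and 42, with OE 1 at 61 and 2 in the series table. Control 2 was thus not low for every leukocyte list. Of the 32 genes, 15 were lowest on it and 8 highest in array medians, against 305 and 493 of all 1185 spots. The 8 include mast cell protease 7 and proteases 8 to 10, which read only 7 and 5 on control 2. VCAM-1, an endothelial ligand of leukocyte integrins, read 174, 77, 212 and 118, and CD44, a hyaluronan receptor, read 66, 6, 138 and 18. The 3 B cell and MHC genes and the tetraspanin CD9 stayed under the limit on all 4 arrays.

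**Figure D3:**
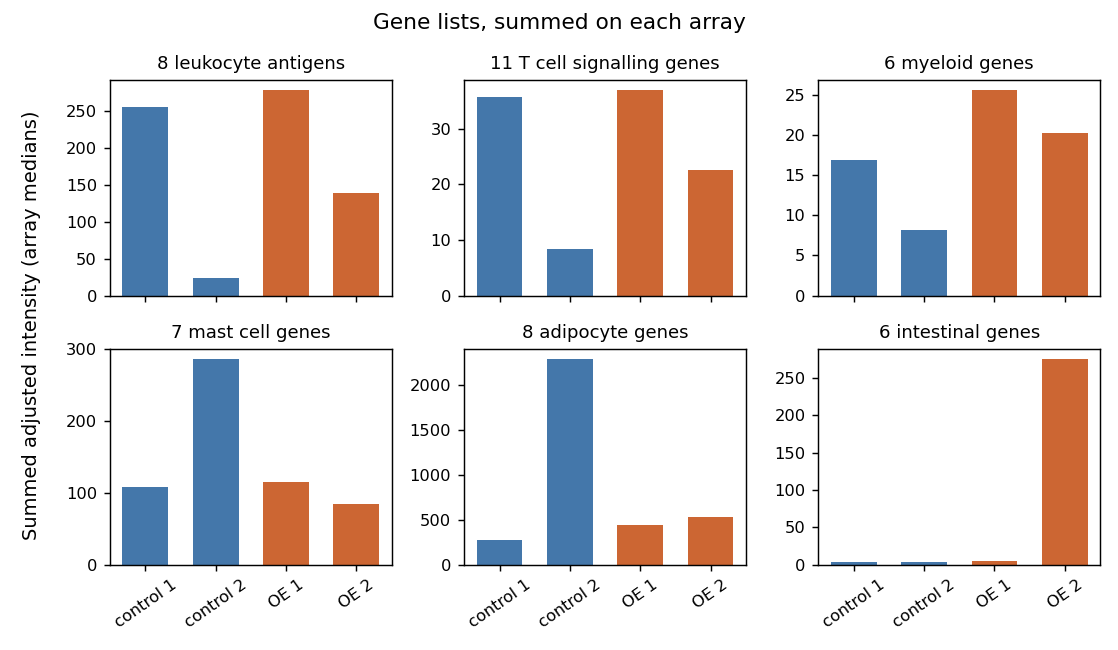
Summed adjusted intensity, in array medians, of 6 gene lists on the 4 arrays (bars, blue for control and orange for OE, each panel with its own axis from 0). Antigens and T cell signalling genes are lowest on control 2 (24.4 and 8.33), mast cell and adipocyte genes are highest there (286 and 2284), and intestinal genes are high on OE 2 alone (275).

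The adipocyte list, in array medians, was highest on control 2 for 7 of 8 genes, against 493 of all 1185 spots. The adjusted intensities of FABP4 were 3532, 19033, 8811 and 8512. Lipoprotein lipase read 115, 746, 342 and 242, and hormone-sensitive lipase 27, 300, 191 and 94. The brightest intestinal genes on OE 2 were the intestinal fatty acid carrier I-FABP at 1690, apolipoprotein A-IV at 1433 and apolipoprotein A-I at 981, each between 0 and 25 on the other arrays. Sucrase isomaltase (14 on OE 2) and alkaline phosphatase (35 on OE 2) stayed under the limit. No pancreatic gene of 6 reached the limit.

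Among 278 spots over the limit on at least 1 array that were not antigens, likeness to the mean log2 profile of the 6 antigens was measured as the Euclidean distance over the 4 arrays, after the mean of each gene was subtracted. On control 2 all 6 antigens and the 5 nearest genes were under the limit, so the distances and their order rest in part on values that are only upper bounds. The nearest was c-ets-1, a transcription factor of the ETS family, at a distance of 0.441, with adjusted intensities of 1166, 91, 1804 and 875. BTG1, an antiproliferative protein, followed at 0.574 with 202, 14, 238 and 120. Phospholipase C gamma-2, a signalling enzyme, came next at 0.918 with 59, 7, 127 and 79, and its OE 1 value is 90 in the series table. The transcription factors NF-kappa-B1 p105 and IRF1 lay at 0.959 and 0.967, with 141, 18, 242 and 101 for the former and 85, 10, 127 and 54 for the latter. In all 5 genes control 2 was the lowest array, which follows largely from choosing them by likeness to the antigens. The 6 antigens themselves lay between 0.598 (CD45) and 2.51 (CD4) from their mean.

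**Figure D4:**
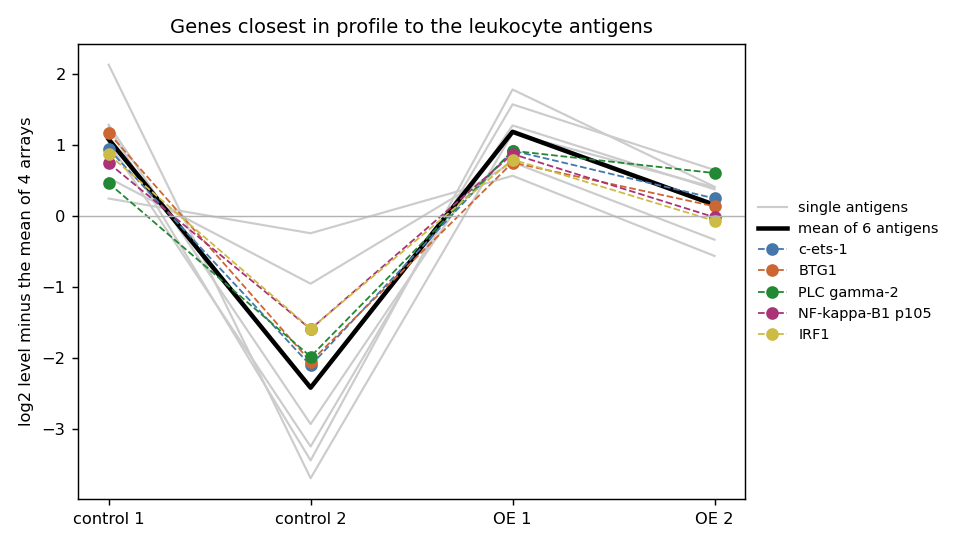
Level on each of the 4 arrays as log2 array medians minus the mean of the gene, for the 6 antigens (grey), their mean (black) and the 5 other genes nearest to it (coloured, dashed). All 5, chosen for likeness to the mean of the antigens, dip on control 2 as it does. CD4, the grey line with the shallowest dip, is lowest on OE 2.

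To show sequence around the gene starts, the 250 bases before the start used in the RefSeq promoter table (GRCr8 build) are given for CD5, CD3 zeta and CD53, which were chosen because their windows hold AGGAAG and at most 29 bases of the annotated gene. The window of CD5 lies outside the gene, while the last 5 bases of the CD3 zeta window and the last 29 of the CD53 window lie inside it. They are chr1:216811210-216811459 on the minus strand, chr13:80576019-80576268 on the plus strand and chr2:197087897-197088146 on the minus strand. Capitals mark AGGAAG, a core of ETS family binding motifs, or its reverse complement CTTCCT.
CD5: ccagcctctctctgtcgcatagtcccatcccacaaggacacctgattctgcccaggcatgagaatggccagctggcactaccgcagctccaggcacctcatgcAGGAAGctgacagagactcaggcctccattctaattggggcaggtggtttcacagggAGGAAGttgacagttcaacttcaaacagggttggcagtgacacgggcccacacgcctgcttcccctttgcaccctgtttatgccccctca
CD3 zeta: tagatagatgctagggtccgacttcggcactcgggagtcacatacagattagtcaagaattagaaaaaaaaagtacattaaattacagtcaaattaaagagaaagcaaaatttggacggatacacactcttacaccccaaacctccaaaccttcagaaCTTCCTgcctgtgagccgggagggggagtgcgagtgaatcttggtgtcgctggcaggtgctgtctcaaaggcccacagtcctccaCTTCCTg
CD53: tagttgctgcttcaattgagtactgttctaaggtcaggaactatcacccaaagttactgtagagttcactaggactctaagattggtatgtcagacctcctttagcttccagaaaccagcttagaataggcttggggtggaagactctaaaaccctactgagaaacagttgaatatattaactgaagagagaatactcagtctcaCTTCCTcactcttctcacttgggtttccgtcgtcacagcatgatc
In CD5 the AGGAAG matches began 147 and 90 bases before the end of the window, in CD3 zeta 92 and 7 bases, and in CD53 45 bases. On either strand AGGAAG was present in 5 of the 7 antigens with a promoter entry, against 29.5% of 27457 rat windows of this length. The 5 include CD3 gamma and CD45, whose windows hold 169 and 64 bases of the annotated gene. TGTGGT, a core of RUNX motifs, was present in 2 of 7, against 14%, and the E-box CANNTG in 6 of 7, against 65.4%. In CD2 a TGTGGT match overlapped a CANNTG match. These matches describe letters in the window and not binding. Cd4 had no entry.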

How the data were processed

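Total RNA of mesenteric fat from 2 control and 2 OE-treated rats was hybridized to Atlas rat nylon cDNA arrays, 1 rat per array, and arrays were grouped by their labels. The authors deposited intensity values from their image analysis software: spot intensity, background and adjusted intensity, which is spot minus background or 0, with no scaling between arrays. The files also held 12 columns of other arrays, which were not used.

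The members and gene lists were chosen with earlier results of these data known. Following the methods, adjusted intensities were divided by the 50th percentile of each array. Values under the 10th percentile of positive scaled values (0.235 array medians) were raised to it. In place of GeneSpring's control strength filter, which was left out, genes needed both arrays of a group over that floor, and 922 genes were tested. Log2 values were fitted with limma 3.58.1 in R 4.3.3 (lmFit, eBayes, group only, Benjamini-Hochberg, threshold 0.05), after the fit had been tested on simulated data. With 2 arrays per group their number limits the precision, and p-values measure the spread between these arrays. Single antigens got no test, and 1 further spot is not reported here.

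Genes named were all 8 antigens, up to 3 of each list with the highest adjusted intensity among those over 2 times the background, and the 5 spots nearest in profile. Leptin, sucrase isomaltase, alkaline phosphatase and CD9, over the limit on no array, were named outside this rule. The spots beside the antigens and the motifs searched were chosen after the values were seen. Promoter sequences came from the RefSeq table for GRCr8, in which 7 of the 8 symbols matched. Alternatives were other scalings, floors, filters and limits, geometric means, omitted background subtraction, normexp (offset 50), the series table, each array left out and a replicate block.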

Additional observations from a re-analysis of the deposited data

How the results depend on the processing

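The count of antigens with a ratio over 1.5, 2 as reported, was 1 when arrays were scaled to the 75th percentile or to the total intensity, 0 with the housekeeping genes, 5 without scaling, 4 without background subtraction, 4 with normexp and 4 with geometric means. It ranged from 0 to 5 when each array was left out: 5 without control 1, 0 without control 2, 0 without OE 1 and 4 without OE 2. The count under 0.5, 0 as reported, was 1 with the housekeeping genes, and with an array left out it ranged from 0 to 1, the latter without control 2. The median ratio of 1.35 was 0.701 with the housekeeping genes and 3.04 with geometric means. With an array left out it ranged from 0.883 (without control 2) to 17.7 (without control 1, against values under the limit). The cause of these shifts was not tested beyond the array or scaling named. The antigens over the limit on OE 2 numbered 3 at 3 times and 5 at 1.5 times the background, and those on control 2 numbered 0 under the 3 other limits tried, while control 1 and OE 1 gave 5 or 6. The housekeeping scaling moved the median log2 ratio of the 285 spots from -0.22 to -0.95, and no scaling moved it to 0.58, with the antigens at -0.51 and 1.06.

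No gene passed the limma threshold under any of 19 alternatives for all genes or 18 for the other leukocyte genes, where the smallest adjusted p ran from 0.171 to 0.999 and an unadjusted p under 0.05 was met by 3 to 258 of all genes and 0 to 6 of the other leukocyte genes. Arrays that shared a replicate number were not treated as pairs, since their deviations had a correlation of 0.0495 across genes, and a replicate block gave 0 calls with 17 genes at an unadjusted p under 0.05. The series table has no gene names, so it was run for the count over all genes only; the 8 antigens each matched 1 of its rows by the values of the other 3 arrays, with an equal value on OE 1. A level under the limit has only an upper bound, which covers all antigens on control 2.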
